A study of Mus musculus with 32 samples.

Results

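The 10 genes described here encode the proteins that hold Nrf2 in check, sit beside it on DNA, or resemble it: *Keap1*, *Cul3*, *Sqstm1*, *Bach1*, *Bach2*, *Maff*, *Mafg*, *Mafk*, *Nfe2l1*, and *Nfe2l3*. They were chosen by name, for their place in the pathway, with earlier results of these data known. Each matched 1 of the 34453 rows of the count table of retinal pigment epithelium (RPE) RNA. With human NFE2L2 (Nrf2) expressed in the RPE, *Sqstm1* rose at both ages studied, *Keap1* and *Bach1* passed the threshold at P20, and *Mafg* passed it at P40. The other 6 genes did not pass it at either age.

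Nrf2 is a cap'n'collar (CNC) transcription factor that is made continuously and destroyed almost as fast. KEAP1, a sensor protein with reactive cysteines, binds it and presents it to the CUL3 ubiquitin ligase, and electrophiles or oxidants that modify KEAP1 let newly made Nrf2 escape to the nucleus. The autophagy receptor p62, encoded by *Sqstm1*, binds KEAP1 at the same pocket as Nrf2 and can carry it into autophagosomes. In the nucleus Nrf2 does not bind DNA alone: it pairs with a small Maf protein (MAFF, MAFG, or MAFK), and the pair binds the antioxidant response element (ARE). BACH1 and BACH2 pair with the same small Mafs on similar elements and repress, and NRF1 (*Nfe2l1*) and NRF3 (*Nfe2l3*) are the other CNC activators. The RPE, which supports the photoreceptors and takes up their shed outer segments, lives under high oxidative load.

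RNA came from the RPE of both eyes of 16 mice labelled *rd1*, FVB/N animals that lack Pde6b and lose their rods early, with 7 mice taken at P20 and 9 at P40. In each mouse, the Nrf2 eye had received AAV-Best1-Nrf2 (AAV8 carrying human Nrf2 cDNA) together with AAV-Best1-GFP, and the control eye AAV-Best1-GFP only, so that GFP and injection were shared by all 32 libraries. The methods give AAV-Best1-GFP in another capsid and a larger total vector dose for the eyes that received both. Nrf2, the AAV8 capsid, and the dose therefore cannot be told apart in any comparison of Nrf2 with control eyes. The human Best1 promoter restricts expression to the RPE, and the spread of GFP was inspected in each eye when it was taken. The labels name *rd1* for every library, but the methods describe fewer *rd1* pairs at both ages and also pairs of wild-type CD1 mice at P40, whose number together with the P40 *rd1* pairs equals that of the P40 pairs analysed here. Whether the P40 group holds CD1 mice was not settled, and this touches each P40 result and each comparison of the ages. Which libraries came from the same mouse was inferred from the numbers in the labels, and each result given within a mouse rests on that pairing. The 10 RPE markers examined, among them *Rpe65* and *Best1*, had summed levels of 11360 to 71060 CPM (read counts scaled to a common library size after TMM normalization) in every library, and none was at 0 throughout a group. At P40, control eyes of mice 1, 2, 3, 5, and 9 had RPE sums of 37220 to 68720 CPM, against 11360 to 24010 CPM in mice 4, 6, 7, and 8. The sums of 8 cone markers were 790 to 2112 against 275 to 461 CPM. Those of 9 rod markers were 321 to 778 against 160 to 245 CPM. The Nrf2 eyes of these mice overlapped in each of these sums. This division was seen in the values, and its relation to strain was not tested.

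The libraries held 16548332 to 50542797 estimated counts (median 34471849.5), so that 3 counts corresponded to 0.0566 to 0.182 CPM, a limit that covers counting error only because the RNA was amplified. No library was at that level for any of the 10 genes. Levels of human *NFE2L2* in Nrf2 eyes ran from 1082 to 9506 CPM at P20 and from 3205 to 10440 CPM at P40. Some control eyes held it too. At P20, the control eyes of mice 5, 4, and 2 had 154, 66.3, and 47.2 CPM, and those of mice 1, 6, and 7 had 0.92 to 7.17 CPM. At P40, the control eyes of mice 8 and 5 had 99.2 and 49.0 CPM, and the rest had 0 to 1.46 CPM. The P20 library labelled control of mouse 3 had 1098 CPM of *NFE2L2*, and the P20 library labelled Nrf2 of mouse 4 had 1082 CPM. The counts of these 2 libraries differed, in mean squared terms, 7.84 times as much as sampling noise allows, where any other pair differed at least 45.97 times as much, so they may not be independent. At P40, the control eye of mouse 8 had the lowest total of its group (17721493) and the lowest RPE marker sum of all libraries. Calls of the 10 genes at P20 are therefore given also without mice 3 and 4, as are list calls that this changed, and results at P40 without mice 3 and 8 where that changed a call. Differences between family members, the share of *Mafg*, and the correlations with the transgene were not computed without P20 mice 3 and 4. RNA from the whole layer was measured, and fewer cells of a type cannot be told apart from less RNA per cell.

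In control eyes at P20, the levels of the 10 genes spanned more than 2 orders of magnitude per transcript length. *Sqstm1* stood highest, at 199 ± 26.5 CPM per kb of its longest transcript (mean ± SD, n = 7), followed by *Nfe2l1* at 56.6 ± 12.7 and *Keap1* at 19.8 ± 2.59. *Mafg* (10.6 ± 1.17), *Mafk* (10.48 ± 6.18), *Cul3* (9.12 ± 2.58), and *Nfe2l3* (8.39 ± 5.54) came next and did not differ from one another beyond their spread. *Bach1* (1.76 ± 0.258) and *Maff* (1.45 ± 0.911) overlapped, and *Bach2* was the lowest, at 0.67 ± 0.21. Among the small Mafs, *Mafg* and *Mafk* were thus close in level, with *Maff* far below both. The genes also differed in how evenly they were expressed. The coefficient of variation over the 7 control eyes was 11% for *Mafg*, 13.1% for *Keap1*, 13.3% for *Sqstm1*, and 14.7% for *Bach1*, against 59.0% for *Mafk*, 62.7% for *Maff*, and 66.1% for *Nfe2l3*.

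**Figure D1:**
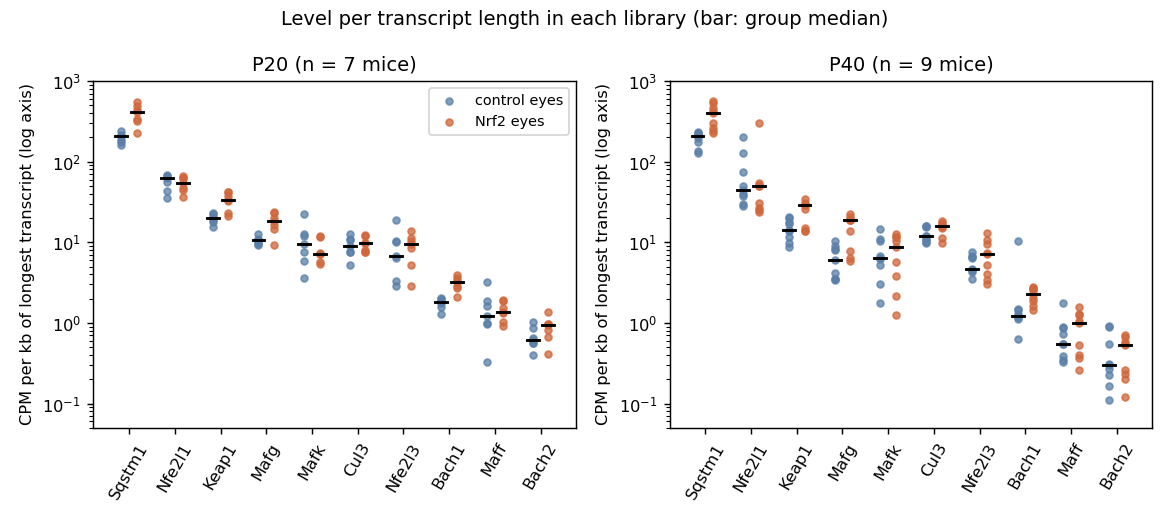
Level of each of the 10 genes in every library, in CPM per kb of the longest annotated transcript on a log axis, at P20 (left, 7 mice) and P40 (right, 9 mice), with control eyes in blue, Nrf2 eyes in orange, and the group median as a bar. *Sqstm1* lies highest and *Bach2* lowest at both ages, and 1 control eye at P40 stands above the rest in *Bach1*.

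The promoters were searched for the core of the ARE, TGACNNNGC, on both strands, in windows from 250 bases before to 50 bases after each RefSeq transcription start (GRCm38.p6). All 10 genes matched the table, with 16 windows in all. The 3 small Maf genes held the core, each in 1 window, which makes 3 of the 10 genes against 14% of all 27025 genes, and 3 of the 16 windows against 12.4% of all 32851 windows. Their windows are shown here because the small Mafs are the obligate partners at this element, with the core in capitals. *Mafg* (chr11:120633498-120633797, minus strand) has it on the opposite strand, 222 bases before the start, where it reads TGACCGTGC. *Mafk* (chr5:139791286-139791585, plus strand) has it on the opposite strand, 13 bases before the start, as TGACACCGC. *Maff* (chr15:79346371-79346670, plus strand) has it on the same strand, 112 bases before the most upstream of its starts, as TGACTCTGC.
Mafg: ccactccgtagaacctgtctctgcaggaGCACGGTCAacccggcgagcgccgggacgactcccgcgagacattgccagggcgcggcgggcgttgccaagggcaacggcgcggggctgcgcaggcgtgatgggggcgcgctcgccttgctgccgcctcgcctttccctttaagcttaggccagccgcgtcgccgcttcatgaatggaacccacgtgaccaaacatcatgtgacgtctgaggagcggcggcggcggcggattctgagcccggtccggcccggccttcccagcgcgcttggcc
Mafk: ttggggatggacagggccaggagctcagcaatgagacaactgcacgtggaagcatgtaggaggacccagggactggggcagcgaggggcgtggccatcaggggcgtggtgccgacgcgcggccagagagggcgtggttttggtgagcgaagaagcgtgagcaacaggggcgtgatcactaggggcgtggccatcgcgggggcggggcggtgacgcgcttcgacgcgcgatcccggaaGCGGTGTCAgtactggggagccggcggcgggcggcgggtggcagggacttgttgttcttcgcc
Maff: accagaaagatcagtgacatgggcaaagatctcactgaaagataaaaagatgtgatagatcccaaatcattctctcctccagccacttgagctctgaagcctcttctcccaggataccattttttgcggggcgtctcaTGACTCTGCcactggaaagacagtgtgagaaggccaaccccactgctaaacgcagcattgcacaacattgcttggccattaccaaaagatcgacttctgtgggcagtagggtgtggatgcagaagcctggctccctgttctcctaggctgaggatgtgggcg

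The windows of *Keap1*, *Sqstm1*, and *Bach1*, the genes that passed the threshold at P20, did not hold these letters, which says nothing of elements elsewhere. The fuller form TGACTCAGC was in none of the 16 windows and in 0.454% of all windows. The shorter motif TGCTGA, which small Mafs bind, was in windows of 3 of the 10 genes, *Bach1*, *Mafk*, and *Nfe2l1*, against 21.7% of all genes. Of the 3 genes with a core, *Mafg* rose with Nrf2 and *Mafk* and *Maff* did not pass the threshold, as described below for each.

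The first comparison asked which regulators of Nrf2 change their transcript level when Nrf2 itself is raised in the RPE. At P20, 3 of the 10 genes passed the threshold (Benjamini-Hochberg adjusted *P* under 0.05 over all genes in the quasi-likelihood test of edgeR, blocked by mouse), and all 3 were higher. Of all 16303 genes tested, 3.41% passed and 2.93% passed as higher. The median log2 fold change was 0.24 over the 10 genes and −0.04 over all genes. At P40, 2 of the 10 genes passed, both higher, where 4.57% of 16686 genes passed and 3.33% passed as higher. The median was 0.23, against −0.03 over all genes.

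*Keap1* (chr9:21229730-21239361, minus strand) encodes the adaptor that targets Nrf2 for ubiquitination. In control eyes at P20 it had 56.3 to 84.1 CPM (median 72.0), and in Nrf2 eyes 76.0 to 152.7 CPM (median 119.5). The Nrf2 eye was the higher in 7 of 7 mice, which was so for 5.59% of the genes tested, while the groups overlapped through the Nrf2 eyes of mice 2 and 4. Its log2 fold change was 0.67 ± 0.14 (SE, edgeR adjusted *P* = 0.0349), or 1.59-fold, and 0.78 without mice 3 and 4 (adjusted *P* = 0.0405). At P40, the levels were 31.97 to 74.5 CPM (median 51.4) in control eyes and 49.5 to 122.7 CPM (median 104.4) in Nrf2 eyes. Again the Nrf2 eye was the higher in 8 of 9 mice and the groups overlapped. The log2 fold change of 0.66 ± 0.19 (SE) was close to that at P20 but did not pass the threshold (adjusted *P* = 0.0804). It passed without mouse 6 (0.77, adjusted *P* = 0.0215), the mouse in which *Keap1* was lower in the Nrf2 eye, and also with DESeq2 (adjusted *P* = 0.0183) and limma voom (adjusted *P* = 0.00886).

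*Cul3* (chr1:80264923-80340480, minus strand) encodes the scaffold of the ligase that KEAP1 feeds. It had 24.5 to 60.4 CPM in control eyes and 35.3 to 58.6 CPM in Nrf2 eyes at P20, and 45.9 to 75.1 and 46.8 to 85.6 CPM at P40. Its log2 fold change was 0.06 ± 0.15 (SE) at P20 and 0.24 ± 0.14 (SE) at P40, and neither passed the threshold. The adaptor and its scaffold were then compared within each mouse, as the difference of their log2 changes. *Keap1* changed by 0.61 ± 0.53 more than *Cul3* (mean ± SD, n = 7) at P20, in 7 of 7 mice, which gave *P* = 0.0156 in a two-sided exact sign-flip permutation test, the smallest value 7 mice can give. At P40 it changed by 0.42 ± 0.49 more, in 7 of 9 mice (*P* = 0.0352, exact permutation test). Over the 8 such differences between 2 family members that were tested, the adjusted *P* was 0.0703 for both (exact permutation test), so that neither passed.

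*Sqstm1* (chr11:50199366-50210827, minus strand), which encodes p62, had the highest level of the 10 genes. At P20 it had 436.1 to 643.6 CPM in control eyes (median 556.9) and 614.1 to 1484 CPM in Nrf2 eyes (median 1098). The groups overlapped only through the Nrf2 eye of mouse 4 and the control eye of mouse 3, the Nrf2 library with the lowest transgene level and the control library with the highest. The log2 fold change was 0.92 ± 0.18 (SE, edgeR adjusted *P* = 0.0304), or 1.89-fold, with 7 of 7 mice higher, and 1.07 without mice 3 and 4 (adjusted *P* = 0.0340). At P40, control eyes had 342.6 to 626.6 CPM (median 551.1) and Nrf2 eyes 602.9 to 1527 CPM (median 1067). Every one of the 9 mice was higher in the Nrf2 eye, by 0.22 to 1.44 on the log2 scale, as was so for 3.55% of the genes tested. The log2 fold change was 0.89 ± 0.18 (SE, edgeR adjusted *P* = 0.0116), it kept the call when any 1 mouse was left out, and it missed the threshold without both mice 3 and 8 (0.92, adjusted *P* = 0.0519). *Mrnip*, which overlaps *Sqstm1* on the opposite strand and is counted in a row of its own, had a mean of 3.58 CPM. Whether the genes share exons, whose reads unstranded libraries could not assign, was not examined.

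**Figure D2:**
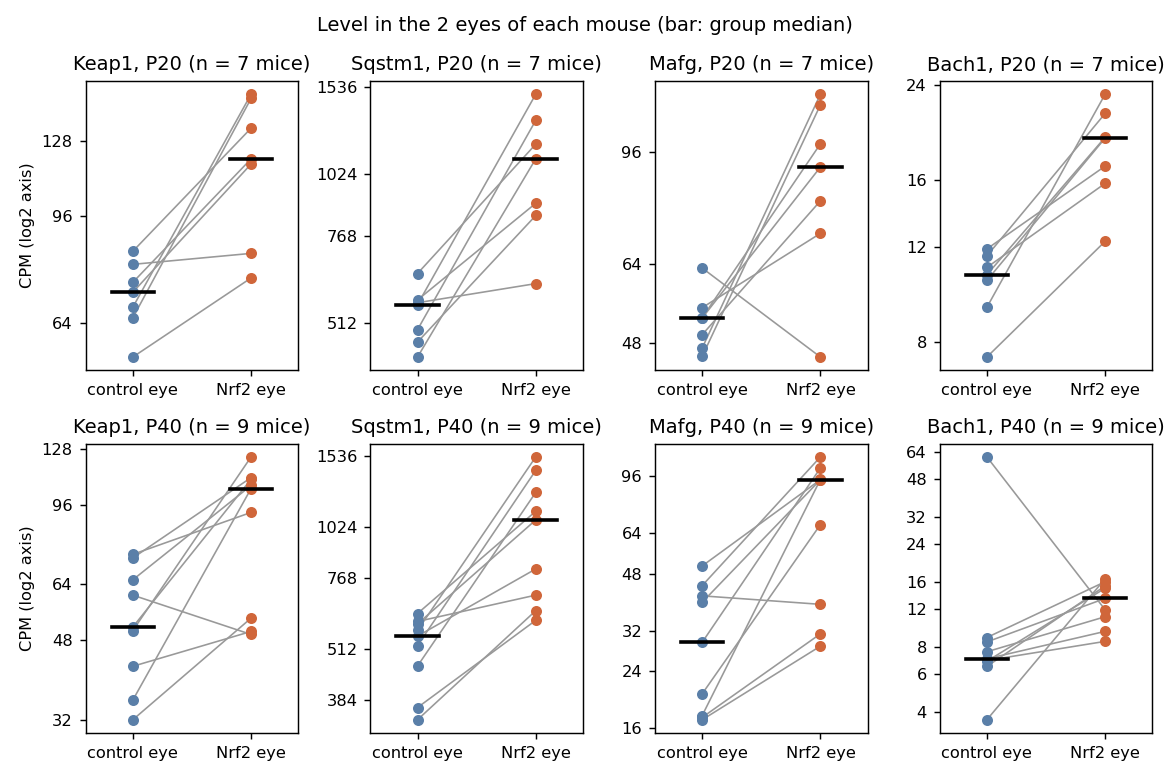
Levels of *Keap1*, *Sqstm1*, *Mafg*, and *Bach1* in CPM (log2 axis) in the control eye (blue) and the Nrf2 eye (orange) of each mouse, joined by a line, at P20 (top, 7 mice) and P40 (bottom, 9 mice), with group medians as bars. At P20 every line rises but that of mouse 4 in *Mafg*, and at P40 the control eye of mouse 8 stands at 61.0 CPM of *Bach1*, above every other eye.

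*Mafg* (chr11:120625117-120633600, minus strand) encodes the small Maf that is the usual partner of Nrf2 in many tissues. At P20 it had 45.7 to 63.0 CPM in control eyes (median 52.6) and 45.6 to 118.4 CPM in Nrf2 eyes (median 90.9). In 6 of 7 mice the Nrf2 eye lay above every control eye, and the exception was mouse 4, with 45.6 CPM against 63.0 CPM in its control eye. The log2 fold change was 0.68 ± 0.20 (SE, edgeR adjusted *P* = 0.111). It passed the threshold without mouse 4, without mice 3 and 4 (0.87, adjusted *P* = 0.0415), with DESeq2 (adjusted *P* = 0.0221), and with limma voom (adjusted *P* = 0.00826). At P40, control eyes had 16.9 to 50.7 CPM (median 29.4) and Nrf2 eyes 28.6 to 110.4 CPM (median 93.8). The Nrf2 eye was the higher in 8 of 9 mice, with mouse 6 the exception at 38.6 against 41.0 CPM. The log2 fold change at P40 was 1.18 ± 0.23 (SE, edgeR adjusted *P* = 0.00981), or 2.27-fold, the largest of the 10 genes in either comparison. It passed in each of the 9 fits that left out 1 mouse, with log2 fold changes of 1.03 to 1.33. *Sirt7*, which overlaps the end of *Mafg* on the same strand, did not pass the threshold at either age (−0.48 and −0.16).

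The other two small Mafs, which can replace MAFG in the dimer, did not pass the threshold. *Mafk* (chr5:139791513-139802653, plus strand) had 11 to 69.5 CPM in control eyes and 16.8 to 37.0 CPM in Nrf2 eyes at P20. Its log2 fold change there was −0.29 ± 0.35 (SE). At P40 it had 5.53 to 45.6 CPM and 3.83 to 39.5 CPM, a change of −0.01 ± 0.47 (SE) on the log2 scale. *Maff* (chr15:79346621-79359076, plus strand) had 0.64 to 6.24 CPM and 1.78 to 3.78 CPM at P20, and 0.64 to 3.46 CPM and 0.52 to 3.05 CPM at P40. Its log2 fold changes were 0.13 ± 0.41 (SE) and 0.18 ± 0.40 (SE). Both genes varied widely between eyes, with an SE of 0.35 to 0.47, against 0.20 and 0.23 for *Mafg*. *Tmem184a*, which overlaps *Mafk* on the opposite strand and is counted in a row of its own, had a mean of 23.2 CPM, and whether these genes share exons was not examined.

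The share of *Mafg* in the summed level of the 3 small Mafs, per transcript length, had a median of 50.2% in control eyes and 69.2% in Nrf2 eyes at P20, and 44.8% and 62.7% at P40. The share rose from control to Nrf2 eye in 6 of 7 and 7 of 9 mice. The ranges overlapped at both ages, from 29.4% to 76.7% and 41.7% to 75.1% at P20, and from 21.7% to 61.8% and 39.6% to 83.9% at P40. As a difference of log2 changes within a mouse, *Mafg* changed by 1.26 ± 1.30 more than *Mafk* at P40 (mean ± SD, n = 9, *P* = 0.0273, exact permutation test) and by 1.00 ± 1.12 more than *Maff* (*P* = 0.0352). The adjusted *P* was 0.0703 for both (exact permutation test, adjusted over the 8 differences), and at P20 the differences were smaller and did not pass either.

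*Bach1* (chr16:87698945-87733346, plus strand) encodes the heme-sensitive repressor that competes with Nrf2 for the small Mafs, above all at *Hmox1*. At P20 it had 7.49 to 11.9 CPM in control eyes (median 10.7) and 12.3 to 23.1 CPM in Nrf2 eyes (median 19.1). The groups did not overlap, which was so, with the Nrf2 eyes higher, for 1.26% of the genes tested. Its log2 fold change was 0.78 ± 0.14 (SE, edgeR adjusted *P* = 0.0217), or 1.72-fold, with 7 of 7 mice higher, and 0.83 without mice 3 and 4 (adjusted *P* = 0.0487). At P40, 8 of 9 control eyes had 3.68 to 8.86 CPM, and the control eye of mouse 8 had 61.0 CPM, while Nrf2 eyes had 8.51 to 16.6 CPM (median 13.5). Outside mouse 8, the Nrf2 eye was the higher in each mouse. The log2 fold change was 0.57 ± 0.36 (SE, edgeR adjusted *P* = 0.615), and 0.87 without mouse 8 ± 0.23 (SE, edgeR adjusted *P* = 0.0646), which also missed the threshold.

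*Bach2* (chr4:32238804-32586108, plus strand) encodes the related repressor known best from B and T lymphocytes. It had 3.60 to 9.23 CPM in control eyes and 3.71 to 12 CPM in Nrf2 eyes at P20, and 0.99 to 8.25 and 1.08 to 6.36 CPM at P40. Its log2 fold changes were 0.33 ± 0.21 (SE) and 0.14 ± 0.48 (SE), and neither passed the threshold. The summed level of 9 lymphocyte markers was 1.72 to 6.81 CPM in 31 of the 32 libraries and 31.1 CPM in 1 Nrf2 eye at P20, and its part in the level of *Bach2* was not tested. *Bach1* changed more than *Bach2* by 0.45 ± 0.60 on the log2 scale at P20 (mean ± SD, n = 7) and by 0.41 ± 0.78 at P40 (n = 9), with adjusted *P* = 0.10 and 0.179 in exact permutation tests.

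*Nfe2l1* (chr11:96817414-96829968, minus strand) encodes NRF1, which is held in the endoplasmic reticulum membrane and, once released and cut, drives the proteasome genes. It had 163.8 to 315.6 CPM in control eyes and 169.1 to 313.1 CPM in Nrf2 eyes at P20. At P40, it had 131.5 to 946.8 CPM and 109.8 to 1423 CPM, with the 3 highest values in the control eyes of mice 3 and 8 and the Nrf2 eye of mouse 3. The log2 fold changes were −0.10 ± 0.17 (SE) and −0.24 ± 0.37 (SE). *Nfe2l3* (chr6:51432670-51458768, plus strand), which encodes NRF3, had 7.33 to 48.7 and 7.29 to 34.8 CPM at P20, and 8.83 to 19.4 and 7.63 to 33.5 CPM at P40. Its log2 fold changes were 0.14 ± 0.41 (SE) and 0.23 ± 0.28 (SE). The mouse gene of Nrf2 itself, *Nfe2l2*, had log2 fold changes of 0.28 ± 0.10 (SE, edgeR adjusted *P* = 0.203) and 0.07 ± 0.16 (SE, edgeR adjusted *P* = 0.947).

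**Figure D3:**
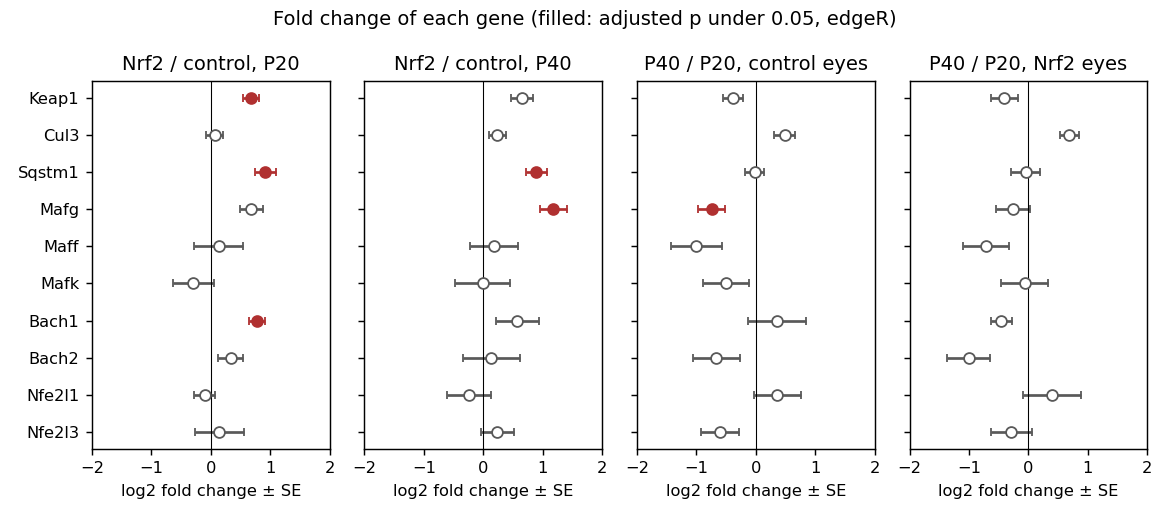
Log2 fold change ± SE of the 10 genes in the 2 comparisons of Nrf2 with control eyes (7 mice at P20, 9 at P40) and the 2 comparisons of P40 with P20, with filled red points for an adjusted *P* under 0.05 in edgeR. *Sqstm1* is filled in both Nrf2 comparisons, and *Mafg* is filled to the right of 0 with Nrf2 at P40 and to the left of 0 with age in control eyes.

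The calls at P20 depended on which mice were included. When 1 mouse at a time was left out, all of *Keap1*, *Sqstm1*, and *Bach1* missed the threshold without mouse 1, 3, 5, or 7, only *Bach1* passed without mouse 2 or 6, and these 3 genes and *Mafg* passed without mouse 4. The log2 fold changes moved little, between 0.59 and 0.75 for *Keap1*, 0.84 and 1.03 for *Sqstm1*, and 0.70 and 0.85 for *Bach1*, with adjusted *P* values in edgeR of 0.0106 to 0.119, 0.00810 to 0.114, and 0.0190 to 0.0913. In the same fits the number of genes called of all genes tested ranged from 111 to 1999.

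The effect of Nrf2 was next compared between the ages, as the difference of the log2 fold changes in 1 fit of all 32 libraries. None of the 10 genes passed the threshold in edgeR, none had an unadjusted *P* under 0.05, and none passed with DESeq2 or limma voom. Of all 17959 genes tested, 0.00557% passed and 2.39% had an unadjusted *P* under 0.05. The difference (P40 minus P20) was −0.01 ± 0.25 (SE) for *Keap1*, −0.02 ± 0.25 (SE) for *Sqstm1*, 0.50 ± 0.33 (SE) for *Mafg*, and −0.20 ± 0.44 (SE) for *Bach1*. Passing at one age and not at the other, as in *Keap1*, *Mafg*, and *Bach1*, was therefore not shown to be a difference between the ages.

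Nrf2 eyes differed in the amount of the transgene, and each gene's change within a mouse was set against it. At P20, the correlation with the log2 CPM of the transgene was r = 0.941 for *Mafg* (rho = 0.893), 0.871 for *Keap1* (rho = 0.786), and 0.866 for *Sqstm1* (rho = 0.929), over 7 mice. The *P* values of r were 0.00516, 0.00536, and 0.00754 in exact permutation tests, and those of rho were 0.0123, 0.0480, and 0.00675. Over the 22 relations tested (10 genes and *Nfe2l2* at 2 ages), the adjusted *P* was 0.0553 for each of the 3 values of r and 0.0742 or more for rho (exact permutation tests), so that none passed. Mouse 4 had the lowest transgene level and the smallest changes of these genes, and without mice 1 and 4, the farthest from the median, r was 0.715, 0.736, and 0.542 over 5 mice. *Bach2* went the other way, with rho = −0.929 (exact permutation *P* = 0.00675, adjusted *P* = 0.0742), r = −0.617 (exact permutation *P* = 0.149), and r = −0.786 without mice 1 and 4. For *Bach1*, which did not overlap between the groups, r was 0.308 (exact permutation *P* = 0.426). At P40, r was 0.329 for *Mafg*, 0.504 for *Keap1*, and 0.546 for *Sqstm1* over 9 mice, with *P* from 0.129 to 0.389 in exact permutation tests. The highest r at P40 was that of *Bach1* (0.694, exact permutation *P* = 0.0312, adjusted *P* = 0.172), which fell to 0.12 without mice 1 and 8.

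**Figure D4:**
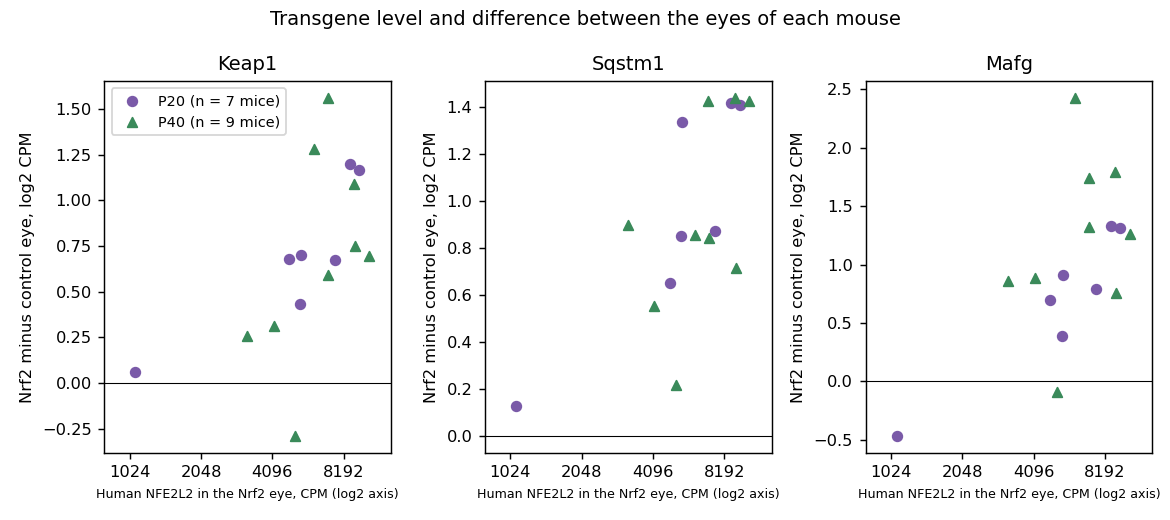
Level of the human *NFE2L2* transgene in the Nrf2 eye (CPM, log2 axis) against the difference between the eyes of the same mouse (log2 CPM, Nrf2 minus control) for *Keap1*, *Sqstm1*, and *Mafg*, with P20 as circles (7 mice) and P40 as triangles (9 mice). At P20 the mouse with 1082 CPM of transgene lies lowest in each panel.

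*Keap1*, *Mafg*, and *Sqstm1* also moved together from library to library within a group. With the group means subtracted, log2 CPM over the 32 libraries correlated with r = 0.887 for *Keap1* and *Mafg*, 0.829 for *Keap1* and *Sqstm1*, and 0.779 for *Sqstm1* and *Mafg*. A second set was formed by *Mafk* and *Nfe2l3* (0.790), *Maff* and *Mafk* (0.684), and *Maff* and *Nfe2l3* (0.661). These values describe libraries that share their normalization and, within a mouse, an animal, and no test was made. At P40, the Nrf2 eyes of mice 3, 6, and 8 were the lowest of the 9 in *Keap1* (53.8, 49.5, and 50.2 CPM), in *Mafg* (28.6, 38.6, and 31.3 CPM), and in *Sqstm1* (602.9, 695.8, and 637.0 CPM). They were also the 3 Nrf2 eyes with the highest RPE marker sums (71060, 55460, and 24320 CPM, against 13510 to 22420 CPM in the other 6). The other groups did not all run this way. At P20, the Nrf2 eye with the lowest sum, that of mouse 2 (19210 CPM), was also the lowest in *Keap1* (76.0 CPM). Among P40 control eyes, mouse 3 had the highest sum (68720 CPM) and the lowest *Keap1* and *Mafg*. Mouse 8 had the lowest sum there (11360 CPM) and the lowest *Sqstm1*. The part of the RPE marker sums in the levels was not tested.

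**Figure D5:**
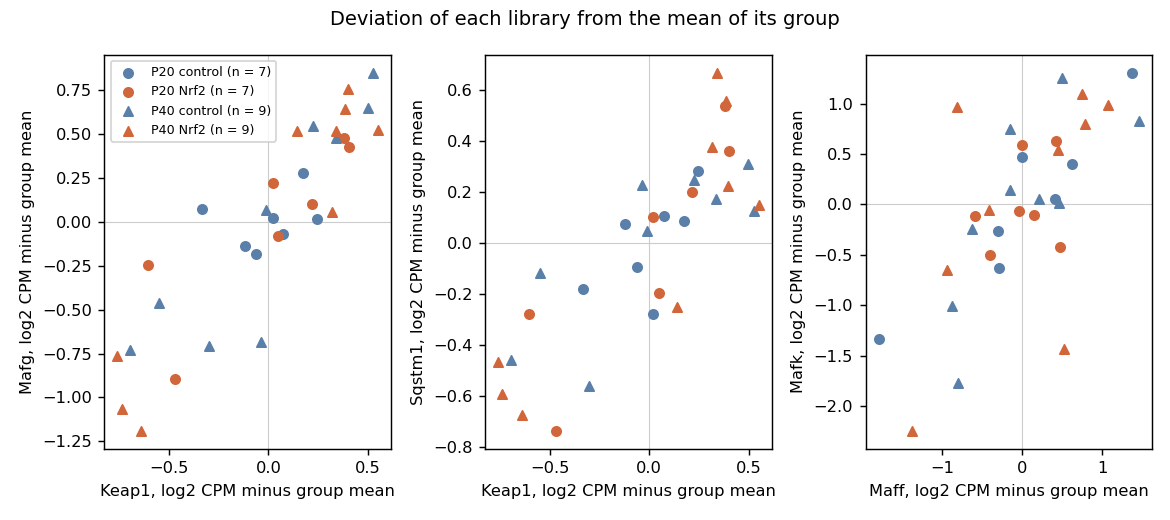
Deviation of each of the 32 libraries from the mean of its group, in log2 CPM, for *Keap1* with *Mafg*, *Keap1* with *Sqstm1*, and *Maff* with *Mafk*, with control eyes in blue, Nrf2 eyes in orange, P20 as circles, and P40 as triangles. The points of all 4 groups follow a common line in the first panel (r = 0.887).

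Over the 11794 genes with a mean log2 CPM of at least 2, the genes most like each of the 10 in these deviations were *Pafah2* (r = 0.943) and *Klhl26* (0.942) for *Keap1*, *Pex6* (0.936) and *Klhl26* (0.924) for *Mafg*, and *Pgrmc1* (0.938) and *Gsr* (0.930), the glutathione reductase gene, for *Sqstm1*. *Klhl26* thus stood near both *Keap1* and *Mafg*. For *Mafk* they were *Dbnl* (0.974) and *Mapkapk3* (0.971), for *Maff* *Sik1* (0.856), and for *Nfe2l3* *Als2cl* (0.875) and *Tmem248* (0.871). For *Nfe2l1* they were *Nrde2* and *Brd2* (0.922 each), for *Bach1* *Trim56* (0.823) and *Pym1* (0.776), for *Bach2* *Pou6f1* (0.844) and *Srcap* (0.828), and for *Cul3* *Zfp704* (0.830) and *Ehhadh* (0.733).

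The third comparison asked how the same genes differed between P20 and P40, a period in which the cones of the *rd1* retina degenerate after its rods. The mice of the 2 ages are different animals, and the libraries came from 2 sequencing runs that the labels do not assign, so age and run cannot be told apart. In control eyes, 1 of the 10 genes passed the threshold, *Mafg*, where 14.8% of 16832 genes passed and 6.42% passed as lower, and 7 of the 10 had a log2 fold change below 0, as had 8416 of all genes. *Mafg* had a value of −0.74 ± 0.23 on the log2 scale (SE, edgeR adjusted *P* = 0.0413), from 45.7 to 63.0 CPM at P20 to 16.9 to 50.7 CPM at P40. The P40 eyes reached down well below the P20 eyes but overlapped them at the top. The call was lost in 11 of the 16 fits that left out 1 eye (any P20 eye, or P40 mouse 2, 3, 5, or 7), with adjusted *P* up to 0.0743 and log2 fold changes of −0.86 to −0.67, and it was lost without P20 mice 3 and 4 (−0.69, adjusted *P* = 0.124) and without P40 mice 3 and 8 (−0.61, adjusted *P* = 0.0733).

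Among the other members, *Maff* had a log2 fold change of −1.0 ± 0.43 (SE, edgeR adjusted *P* = 0.107) between the ages in control eyes, *Cul3* 0.48 ± 0.18 (SE, edgeR adjusted *P* = 0.0702), and *Keap1* −0.38 ± 0.17 (SE, edgeR adjusted *P* = 0.123). *Maff* passed without the control eye of P40 mouse 8, and *Cul3* passed with DESeq2 and limma voom. *Sqstm1* had a log2 fold change of −0.02 ± 0.16 (SE) with control medians of 556.9 and 551.1 CPM. *Bach1* had a value of 0.36 ± 0.49 (SE), which turned to −0.53 ± 0.18 (SE, edgeR adjusted *P* = 0.0532) when the control eye of mouse 8 was left out. Markers of other cells differed between these control eyes too. The 8 cone markers had log2 fold changes above 0 (median 1.42, none past the threshold), with sums of 41.0 to 931 CPM at P20 and 275 to 2112 CPM at P40. Of 6 fibroblast markers, 4 were lower (median −1.16), where 6.42% of all genes were, with sums of 108.5 to 658.3 and 82.1 to 455.5 CPM. Of 9 inner retinal neuron markers tested, 1 was lower (median −1.73), as were 2 of 9 rod markers and 1 of 5 blood markers. Of the 10 RPE markers, 1 was higher and 1 lower (median 0.60), with sums of 14260 to 29230 and 11360 to 68720 CPM. The part of these markers in the age values was not tested. *Nfe2l2* rose, by 0.46 ± 0.14 on the log2 scale (SE, edgeR adjusted *P* = 0.0438), a call lost without P20 mice 3 and 4 (0.38, adjusted *P* = 0.147) and in 12 of the 16 fits without 1 eye.

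In Nrf2 eyes, none of the 10 genes passed between the ages in edgeR, where 0.502% of 16745 genes passed. At an unadjusted *P* under 0.05 there were 3 (*Cul3*, *Bach1*, and *Bach2*), where 25.8% of all genes were. Of the 10, 2 passed with DESeq2 and 2 with limma voom, *Cul3* with both, where 1832 and 2213 of the 16745 genes passed with these tools. *Cul3* went from 35.3 to 58.6 CPM at P20 to 46.8 to 85.6 CPM at P40, with 7 of 9 P40 eyes above every P20 eye. Its log2 fold change was 0.69 ± 0.16 (SE, edgeR adjusted *P* = 0.0614), and 0.75 without P40 mouse 3 (adjusted *P* = 0.0330). *Bach2* had a log2 fold change of −1.0 ± 0.36 (SE, edgeR adjusted *P* = 0.119) and *Bach1* of −0.45 ± 0.18 (SE, edgeR adjusted *P* = 0.137). *Mafg*, at −0.26 ± 0.29 (SE, edgeR adjusted *P* = 0.597), did not show in Nrf2 eyes the drop of control eyes at a level that passed, and the difference between these 2 age effects is the same quantity as the difference of the Nrf2 effects, 0.50 ± 0.33 (SE), which did not pass.

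The machinery around these regulators was followed with lists. Of 16 genes of the CUL3 ligase (RBX1, the NEDD8 pathway, and the COP9 signalosome), none passed with Nrf2 at either age in edgeR, with 2 and 1 at an unadjusted *P* under 0.05, 1 and 0 with DESeq2, and 2 and 0 with limma voom. Between the ages in control eyes, 7 of the 16 were higher, among them *Nedd8* (1.47), *Rbx1* (1.19), and *Cops5* (0.82), and *Cand1*, which exchanges the ligase's adaptors, was lower (−0.94), where 8.34% of all genes were higher. None of the 16 passed without P20 mice 3 and 4, where all genes called higher fell from 1403 to 35, and 2 passed as higher without P40 mice 3 and 8. Of 16 other adaptors of CUL3, *Klhl22* rose with Nrf2 at both ages (log2 fold change 0.85 and 0.97, adjusted *P* = 0.0423 and 0.0295 from edgeR), and the call at P40 was lost without mice 3 and 8 (adjusted *P* = 0.131). Of 9 proteins known to bind KEAP1 or Nrf2, the cell cycle inhibitor *Cdkn1a* rose at both ages (1.76 and 1.21), at P20 not without mice 3 and 4 (adjusted *P* = 0.0848), and *Amer1* fell at P40 by 0.82 on the log2 scale.

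Of 18 genes that control Nrf2 apart from KEAP1, 1 rose at P20, *Park7* (0.69, and adjusted *P* = 0.0533 without mice 3 and 4). Among all genes tested, 2.93% were higher at P20 and 3.33% at P40. None of the 18 passed at P40 in edgeR, at an unadjusted *P* under 0.05, with DESeq2, or with limma voom. Of 21 genes of the selective autophagy that p62 serves, *Optn* (0.61), another autophagy receptor, and *Gabarapl2* (0.56) rose at P20, the former not without mice 3 and 4 (adjusted *P* = 0.0546). None of the 21 passed at P40 in edgeR, with 2 at an unadjusted *P* under 0.05, 1 with DESeq2, and 1 with limma voom. The median log2 fold change of the 21 at P40 was −0.10, beside 0.89 for *Sqstm1*. Of 19 other bZIP factors listed, 16 and 17 were tested, and *Cebpb* rose at both ages (1.01 and 0.88), at P20 not without mice 3 and 4 (adjusted *P* = 0.0746).

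The genes that NRF1 drives were set beside *Nfe2l1*. Of 31 proteasome subunits, *Psma2* and *Psmd11* rose with Nrf2 at P20 (0.57 each), where 2.93% of all genes were higher, and neither passed without mice 3 and 4. None passed at P40 in edgeR (1 at an unadjusted *P* under 0.05, none with DESeq2 or limma voom). Between the ages in control eyes, 20 of the 31 were higher and none lower, with a median log2 fold change of 0.50, where 8.34% of all genes were higher. None of the 31 passed without P20 mice 3 and 4 (median 0.47) and 1 passed without P40 mice 3 and 8 (median 0.39). *Nfe2l1* had a value of 0.36 ± 0.39 (SE) that did not pass and whose sign turned with limma voom (−0.43), without the control eye of mouse 8 (−0.024), and without P40 mice 3 and 8 (−0.40). Of 12 genes that process NRF1, *Ogt*, the O-GlcNAc transferase, fell at P20 by 0.67 on the log2 scale, and none passed at P40 in edgeR (2 at an unadjusted *P* under 0.05, none with the other tools).

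Beside the targets that CNC-Maf pairs share, the changes in the regulators were small. Of 15 such targets, 12 rose at both ages (12 also without P20 mice 3 and 4, and 11 without P40 mice 3 and 8, where *Me1* did not pass), with medians over the list of 2.68 and 3.41 on the log2 scale. Among all genes tested, 2.93% and 3.33% were higher. *Hmox1*, the heme oxygenase gene on which BACH1 and Nrf2 compete, rose by 4.30 and 4.48, and *Nqo1*, the quinone reductase gene, by 2.05 and 2.00. The 3 that did not pass were *Slc48a1*, *Abcb6*, and *Fech*, with log2 fold changes of 0.13 to 0.51. The largest change among the 10 regulators, that of *Mafg* at P40 (1.18), lay below each of the 12 targets at that age but *Me1* (0.99).

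Markers of other cells moved with the treatment as well. The 8 cone markers had a summed level of 41.0 to 931 CPM in control eyes and 19.2 to 90.9 CPM in Nrf2 eyes at P20, lower in 7 of 7 Nrf2 eyes, and of 275 to 2112 and 29.7 to 313 CPM at P40, lower in 8 of 9. All 8 had log2 fold changes below 0 at both ages, 2 of them past the threshold at P20 and 8 at P40 (1 without P20 mice 3 and 4 and 6 without P40 mice 3 and 8), and none was at 0 throughout a group. Among all genes, 0.485% and 1.23% were lower. Of 9 rod markers, *Rom1* was higher at both ages (1.97 and 1.51), and *Sag* (−4.95) and *Pde6g* (−4.78) were lower at P40. Of 10 macrophage and microglia markers, 6 were higher in Nrf2 eyes at P40 (4 without mice 3 and 8), where 3.33% of all genes were higher. Their sums were 88.5 to 464 CPM in control eyes and 139 to 464 CPM in Nrf2 eyes. Of 6 fibroblast markers, *Col3a1* was higher at P40 (1.13), but not without mice 3 and 8 (edgeR adjusted *P* = 0.126). Of the 10 RPE markers, only *Rpe65* was lower in Nrf2 eyes at P20, where 0.485% of all genes were. Its log2 fold change was −2.17 (edgeR adjusted *P* = 0.0198), and −2.59 without mice 3 and 4. At P40, 5 were lower, among them *Rpe65* (−2.82), *Lrat* (−1.80), and *Rlbp1* (−1.18), where 1.23% of all genes were. The sum of the 10 was lower in the Nrf2 eye of 3 of 7 mice at P20 and 5 of 9 mice at P40. The part of these markers in the changes of *Keap1*, *Sqstm1*, *Mafg*, and *Bach1* was not tested.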

How the data were processed

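RNA from the RPE of 16 mice labelled *rd1*, both eyes separately, was amplified with the Ultra Low v4 kit and sequenced by the authors, who estimated transcript levels with Salmon 0.9.1 (per the labels) on mm10 with Ensembl 91 and summed them per gene with tximport. The authors deposited estimated counts per gene, as whole numbers, without normalization for library size or length. That the table holds the Salmon estimates was inferred from its rows. Gene symbols and coordinates came from an annotation of GRCm38, and promoter windows from RefSeq.

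The software was R 4.3.3 with the packages edgeR 4.0.16, limma 3.58.1, and DESeq2 1.42.0. Low counts were removed by filterByExpr and libraries scaled by TMM. All genes were fitted by quasi-likelihood, with dispersion not made robust, with the mouse as a block for the Nrf2 comparisons and without a block between the ages, and Benjamini-Hochberg adjustment covered every gene tested (threshold 0.05). Eyes were paired by the number that the labels give within each treatment, taken here as the mouse. That eyes with the same number came from 1 animal was inferred from the paired design in the paper. Deviations of paired libraries from their group means correlated by 0.0213 on average at P20 and by 0.0990 at P40. Single pairs ran from −0.273 to 0.27 (P20) and from −0.352 to 0.618 (P40), so these correlations cannot settle the pairing. Differences between eyes used log2 CPM with a prior count of 2. Correlations and differences between family members were tested with exact permutation tests. The code was tested on simulated data.

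The 10 genes, the lists, the family differences, and the libraries left out were chosen with earlier results of these data known. Named are the 10 genes, up to 3 genes per list past the threshold with Nrf2, and the 2 genes most like each of the 10, of which 1 for *Maff* is not reported here. Genes of the lists named between the ages or for missing the threshold, with *Me1*, were chosen after their values were seen. The alternatives tried were limma voom with sample weights, DESeq2, RLE size factors, other filters, robust dispersion, fits with or without the block or over more libraries, a prior count of 0.5, leaving out each mouse or eye, and leaving out P20 mice 3 and 4. Leaving out P40 mice 3 and 8 was added after seeing the data. The sequencing run could not be fitted, since it is not given in the sources used here.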

Additional observations from a re-analysis of the deposited data

Results flagged for a closer look

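In each of 60 sets of values (10 genes, as levels in 4 groups and as differences between the eyes at 2 ages), the highest or lowest value was compared with its nearest neighbour by Dixon's test, which flags about 1 set in 20 by chance. It flagged 5 sets, of 3 genes, all at P40. The control eye of mouse 8 had 61.0 CPM of *Bach1*, against 3.68 to 8.86 CPM in the other 8 control eyes, and the difference between its eyes was −2.35 on the log2 scale, against 0.29 to 2.15 in the other mice. The same eye had 3.46 CPM of *Maff*, against 0.64 to 1.73 CPM in the others. Its *Nfe2l1* difference was −3.11, against −0.81 to 1.24. The Nrf2 eye of mouse 3 had 1423 CPM of *Nfe2l1*, against 110 to 252 CPM in the other 8 Nrf2 eyes. The control eye of mouse 8 was also the library with the lowest RPE marker sum, and the part of this in the values was not tested. The Nrf2 effect on none of the 10 genes differed between the ages by the test of that difference in edgeR (0 at an unadjusted *P* under 0.05, and 0 with DESeq2 or limma voom).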

How the results depend on the processing

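The number of the 10 genes past the threshold was 3 at P20 and 2 at P40 with Nrf2, 1 in control eyes with age, 0 in Nrf2 eyes with age, and 0 when the Nrf2 effects at both ages were compared. At P20 it was 1 without a filter on low counts and 1 in one fit over all 32 libraries, and between 0 and 4 with 1 mouse left out, and at P40 it was 1 without P40 mice 3 and 8. Without the replicate block (the pairing of the eyes), it was 4 at P20, 2 at P40, and 0 for the difference, and the pairing changed no other call than that of *Mafg* at P20. Between the ages in control eyes it was 3 with DESeq2, 4 with limma voom, and 0 without a filter, in one fit over the 4 groups, without P20 mice 3 and 4, and without P40 mice 3 and 8, and 0 to 2 with 1 eye left out. In Nrf2 eyes it was 2 with DESeq2, 2 with limma voom, and 1 with at least 10 counts in every library, over the 4 groups, or without P40 mice 3 and 8, and 0 to 1 with 1 eye left out. *Bach1* changed sign at P40 without the replicate block (−0.039 against 0.57) and between the ages in control eyes with DESeq2 (−0.48, adjusted *P* = 0.0272, against 0.36), and with the P40 control eye of mouse 8 left out the latter was −0.53. The number of all genes called at P20 was 556, against 1951 with DESeq2, 2605 with limma voom, and 1093 without the block, and at P40 it was 762, against 1380 and 1327 with the other tools. Between the ages in control eyes it was 2483, against 4383 with DESeq2, 3747 with limma voom, 914 without a filter, and 158 without P20 mice 3 and 4, and in Nrf2 eyes 84, against 1832, 2213, 31, and 20. A prior count of 0.5 moved none of the 22 correlations with the transgene across the threshold and reversed none. Of 97 values, 23 changed sign under at least 1 alternative, and none of the 23 had passed the threshold. Causes of these changes were not tested.

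The lowest count of these genes in any library was 15, in *Maff*. The spread between eyes was wider, with SE of the log2 fold change up to 0.48 in *Bach2* at P40, against 0.14 in *Keap1* at P20. The strain at P40 and the sequencing run rest on the labels, and differences between the ages share both limits. The pairing of the eyes was inferred from the label numbers, and results given within a mouse share that limit.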
